A study of Mus musculus with 27 samples.

Results

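The mRNA of 9 tight junction genes was followed in mouse thyroid gland organoids (mTGOs) over culture time and after photon irradiation. The 9 genes were taken by name, as *Ocln* with *Cldn1*, *Cldn3*, *Cldn4*, *Cldn7*, *Cldn8*, *Tjp1*, *Tjp3* and *Cgn*, out of 50559 genes in the count matrix, by a list of names that sets no threshold on a measured value. The list was drawn up with earlier results of these data known. The questions put to them were whether the rise of *Ocln* over culture time was shared by the other genes, and whether the radiation dose altered it.

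The organoids were grown from thyroid gland cells of C57BL/6 mice aged 8 to 12 weeks, in Matrigel with EGF, FGF2, the ROCK inhibitor Y27632 and B27 in every group. Unirradiated organoids were collected at days 5, 7 and 11, and organoids given 2, 4 or 7 Gy of photons at day 5 were collected at days 7 and 11, which makes 9 groups of 3 libraries each. RNA was counted from its 3′ ends (Smart3SEQ), and the 27 libraries held 2528866 to 5723150 counts each. Every group held 1 library of each of 3 cultures, named mTG11, mTG12 and mTG14 in the matrix, and values of 3 libraries are given below in that order. The authors state that the sequenced RNA came from organoids of 3 different animals. The labels number 3 mice and do not tie these numbers to the culture names, while the design text speaks of 4 mice. Where cultures are not separate animals the p-values measure only the spread between these libraries.

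Tight junctions seal the gap between neighbouring epithelial cells near their apical side and set which solutes pass between them. Their strands are built from transmembrane proteins, the claudins and occludin, which are tied to the actin cytoskeleton by cytoplasmic scaffolds such as the zonula occludens proteins and cingulin. In the thyroid gland they close the follicle, the hollow ball of epithelium in whose lumen thyroglobulin is stored.

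In the mouse genome (GRCm39) the genes lie on 7 chromosomes. *Ocln* spans chromosome 13, positions 100630334 to 100689535, on the minus strand, and *Cldn3* (135015068 to 135016326, plus strand) and *Cldn4* (134973973 to 134975788, minus strand) lie 39279 bases apart on chromosome 5. *Cldn1* (26175392 to 26190596) and *Cldn8* (88357716 to 88360071) are both on the minus strand of chromosome 16. *Cldn7* lies on chromosome 11 (69852648 to 69858711, plus strand). *Tjp1* lies on chromosome 7 (64945898 to 65177529, minus strand), *Tjp3* on chromosome 10 (81109034 to 81127417, minus strand) and *Cgn* on chromosome 3 (94667376 to 94695136, minus strand). *Cldn7* overlaps the protein-coding gene *Elp5* on the opposite strand and *Tjp3* overlaps *Apba3* there, and 40.7% of the *Cldn7* values and 85.2% of the *Tjp3* values were whole numbers, so part of their counts were fractions. Whether strand was used in counting is not known, so reads of these pairs cannot be told apart. The same held for *Cgn* with the antisense gene *Gm52626* (51.9% whole values) and for *Cldn3*, whose own values were all whole, with *Wbscr25*. *Ocln* overlaps the noncoding gene *Gm60854* on the opposite strand and *Tjp1* overlaps several genes, none with a row of that name in the count matrix. *Cldn1* overlaps *Gm41436*, which had 0 counts. *Cldn4*, with 88.9% whole values, overlaps no gene of the annotation used.

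RefSeq promoter windows, 250 bases before to 50 bases after a transcription start (build GRCm38.p6), were at hand for 8 of the 9 genes. Those of *Ocln*, of *Cldn3* and *Cldn4*, which rose most over time, and of *Cldn1*, which was higher after irradiation, are shown, each read along its own gene's strand. Capitals mark the E-box CACCTG, which reads CAGGTG from the other strand, the core bound by zinc-finger factors such as the Snail and Zeb families, and the AP-1 element TGACTCA, and these letters were chosen after the sequences had been seen. The windows are chr13:100552669-100552968 for *Ocln* (minus strand, the first of its 2 windows), chr5:134985964-134986263 for *Cldn3* (plus strand), chr5:134946885-134947184 for *Cldn4* (minus strand) and chr16:26371790-26372089 for *Cldn1* (minus strand).
Ocln: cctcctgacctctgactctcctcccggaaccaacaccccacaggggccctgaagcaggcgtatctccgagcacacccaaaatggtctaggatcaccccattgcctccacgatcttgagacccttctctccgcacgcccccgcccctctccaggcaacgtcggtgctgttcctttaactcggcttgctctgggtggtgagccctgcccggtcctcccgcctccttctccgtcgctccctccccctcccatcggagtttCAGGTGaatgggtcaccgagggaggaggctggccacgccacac
Cldn3: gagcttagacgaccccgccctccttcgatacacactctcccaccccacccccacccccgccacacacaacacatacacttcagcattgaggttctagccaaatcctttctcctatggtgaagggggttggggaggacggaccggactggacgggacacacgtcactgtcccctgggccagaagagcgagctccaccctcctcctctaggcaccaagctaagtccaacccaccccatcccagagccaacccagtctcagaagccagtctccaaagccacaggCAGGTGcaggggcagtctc
Cldn4: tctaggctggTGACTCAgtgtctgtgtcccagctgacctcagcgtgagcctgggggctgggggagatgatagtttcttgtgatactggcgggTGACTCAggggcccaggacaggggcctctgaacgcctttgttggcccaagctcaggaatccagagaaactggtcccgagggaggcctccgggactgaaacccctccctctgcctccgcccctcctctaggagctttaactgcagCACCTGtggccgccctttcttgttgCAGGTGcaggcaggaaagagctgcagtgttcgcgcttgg
Cldn1: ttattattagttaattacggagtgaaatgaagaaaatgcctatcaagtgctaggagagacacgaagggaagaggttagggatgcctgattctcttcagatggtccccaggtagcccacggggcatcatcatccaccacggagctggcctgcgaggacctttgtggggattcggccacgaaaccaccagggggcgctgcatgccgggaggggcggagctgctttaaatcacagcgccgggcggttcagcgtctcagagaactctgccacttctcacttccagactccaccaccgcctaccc

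The *Cldn4* window held 2 of each motif, the windows shown of *Ocln* and *Cldn3* held 1 E-box just downstream of the start, and that of *Cldn1* held neither. The second *Ocln* window held 2 E-boxes, at -213 and -68 bases from its own start, of which the first is the site shown. Their count and position for *Ocln* thus depend on the start used. An E-box was found in a window of 5 of the 8 genes and in 20.2% of all 32851 promoter windows, and the AP-1 element in 1 of the 8 genes and in 5.20% of all windows. By gene, 22.6% of 27025 genes had an E-box in at least 1 window and 5.95% an AP-1 element. The GC-box GGGCGG was in a window of 7 of the 8 genes (35.7% of all windows) and the Grainyhead-like element AACNGGTT in 1, *Cgn* (2.09%), all searched on both strands. A match is a description of the letters and says nothing of binding in these organoids.

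Some epithelial genes were at high levels in every library, while several thyroid markers were near 0. The stratified keratins *Krt5* and *Krt13* ran from 1996 to 6433 and from 2094 to 5701 counts per 1000000 (CPM), and the transcription factors *Nkx2-1* and *Foxe1* from 6.32 to 21.5 and from 20.3 to 43.0 CPM. Thyroglobulin (*Tg*) reached at most 16.7 CPM, while *Duox2*, another thyroid marker, ran from 0 to 93.8 CPM. The iodide carrier *Slc5a5*, the TSH receptor *Tshr*, *Pax8* and *Hhex* were at 0 in 21, 20, 14 and 16 of the 27 libraries. Of 8 immune markers, *Cd68*, *Itgam* and *Lyz2* averaged 28.6, 10.3 and 5.39 CPM, while the pan-leukocyte gene *Ptprc* averaged 0.107 CPM and *Cd3e* was at 0 throughout. Of 10 fibroblast markers, *Col1a1* and *Col1a2* averaged 20.0 and 21.7 CPM. In such bulk samples more cells of a type and more RNA per cell cannot be told apart. All 9 tight junction genes were detected in every library, *Ocln* with 20 to 149 counts, *Cldn8* with 7 to 70 and *Cldn4* with 185 to 3245, where 3 counts correspond to 0.524 to 1.19 CPM depending on the library. Levels were not compared between genes.

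**Figure D1:**
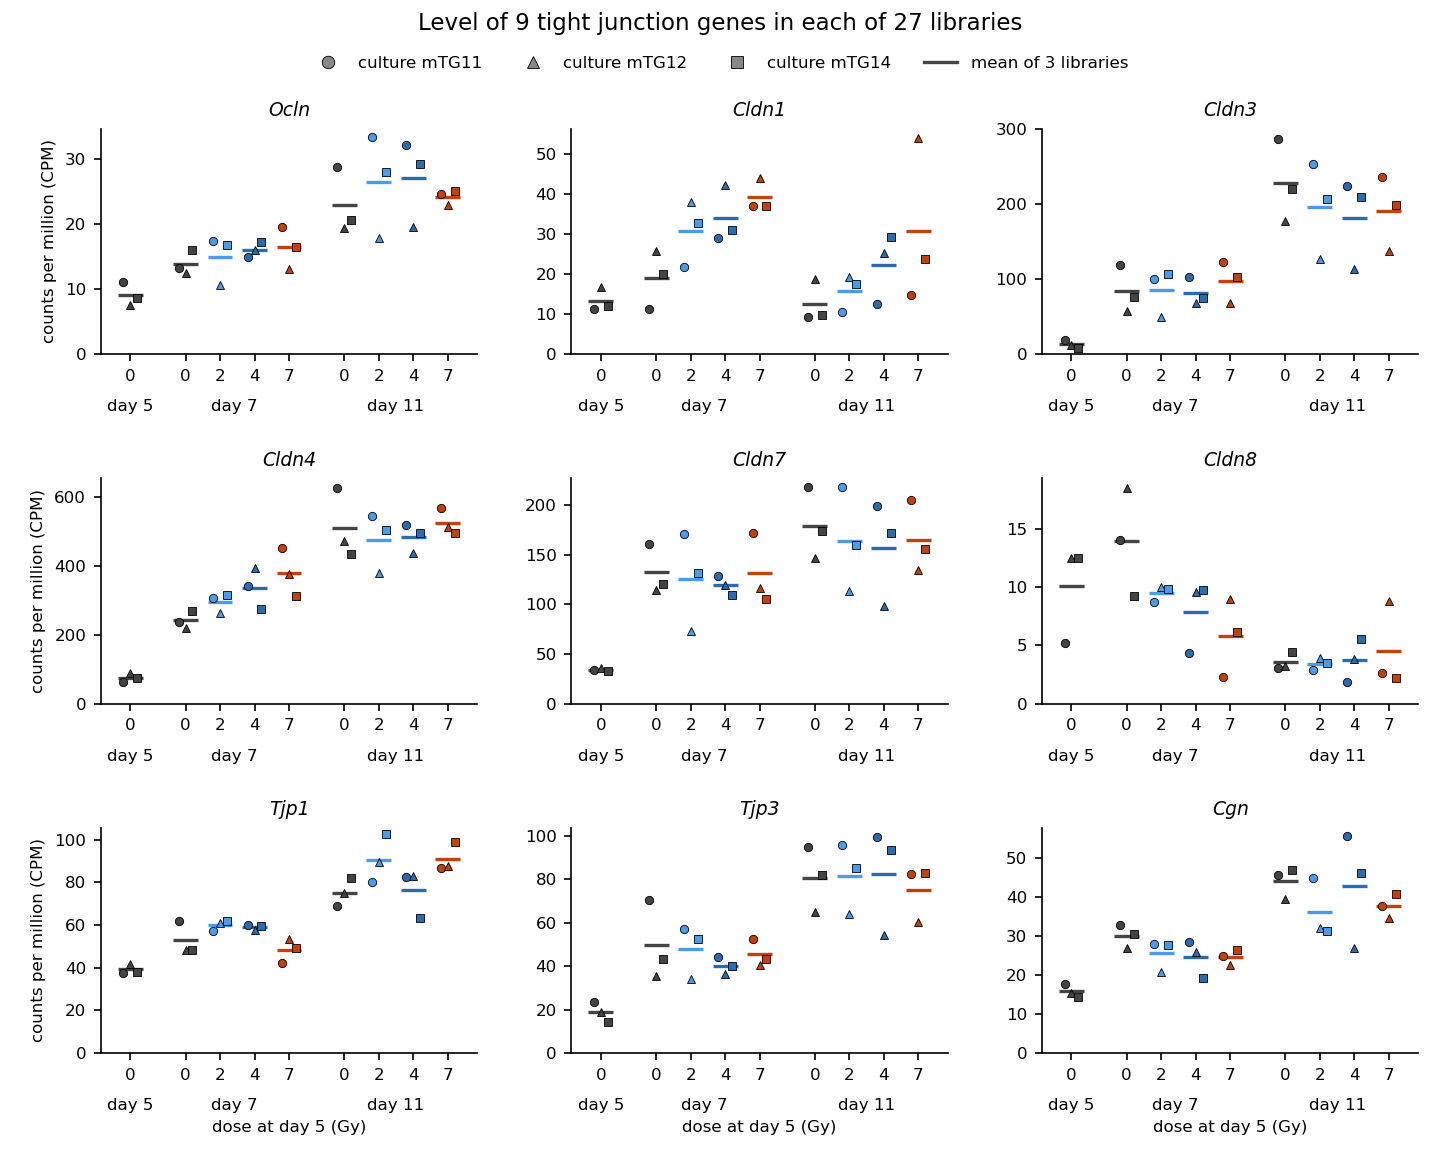
Level of each of the 9 genes in CPM (vertical axis, from 0) in all 27 libraries, by day and by dose in Gy (horizontal axis), with one point per library and the group mean. *Ocln* lay between 7.60 and 11.0 CPM at day 5 and between 17.8 and 33.3 CPM in the irradiated libraries of day 11, while *Cldn8* was lowest at day 11 and *Cldn1* was highest in irradiated organoids.

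*Ocln*, the first transmembrane protein found in tight junctions, rose from day 5 to day 7 and again to day 11 without irradiation. It stood at 11.0, 7.60 and 8.55 CPM at day 5, at 13.3, 12.5 and 16.0 CPM at day 7 and at 28.8, 19.3 and 20.6 CPM at day 11, and no 2 of these days overlapped. The group means were 9.06 ± 1.77, 13.9 ± 1.8 and 22.9 ± 5.1 CPM (SD, n = 3 each). From day 5 to day 11 the rise was 2.79-fold, a log2 fold change of 1.48 (SE 0.22, 95% confidence interval 1.01 to 1.95, adjusted p = 0.000167, edgeR quasi-likelihood test with Benjamini-Hochberg adjustment over 18442 genes).

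The steps of *Ocln* were about equal on the log2 scale, 0.76 (SE 0.23, adjusted p = 0.0313) to day 7 and 0.72 (SE 0.20, adjusted p = 0.0213) from day 7 to day 11, and each was less secure than the whole. The first step lost its call without the day 5 library of mTG12 (adjusted p = 0.107) or mTG14 (0.103) or the day 7 library of mTG14 (0.115), with DESeq2 (0.0756) and without TMM factors (0.0665). The second lost it without the day 7 library of mTG11 (0.0708) or mTG12 (0.0701) or the day 11 library of mTG11 (0.0960). With the culture as a block both steps were called (adjusted p = 0.0143 and 0.00705). Of 10 alternatives, 6 called the first step and 9 the second. The rise over both steps was called in all 6 fits that left out 1 library of day 5 or day 11.

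Of the other 8 genes, 6 rose with *Ocln* at both steps: *Cldn3*, *Cldn4*, *Cldn7*, *Tjp1*, *Tjp3* and *Cgn*. With *Ocln* that made 7 of 9 genes higher at day 7 than at day 5, where 12% of all genes tested were called higher and 9.62% lower, and none of the 9 was called lower (0 by DESeq2 as well). From day 7 to day 11, 7 of 9 were higher and 1 lower, against 9.57% and 11.7% of all genes, and from day 5 to day 11 again 7 and 1, against 21.3% and 20.1%. The median log2 change of the 9 genes was 1.08, 0.54 and 1.63 in these comparisons, beside 0.04, 0.00 and 0.06 over all genes tested. DESeq2 called 6, 8 and 8 of the 9. The 9 genes and the lists used below were chosen with earlier results of these data known. Such counts therefore describe these genes and are no independent test of a shared rise. Without TMM factors the median of all genes was -0.11 at day 7 and -0.08 at day 11 relative to day 5. The split of calls went from 2211 higher and 1775 lower to 1531 and 2740 at day 7, and from 3921 and 3700 to 3049 and 4591 at day 11. The same 7 genes of the 9 stayed above 0.

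**Figure D2:**
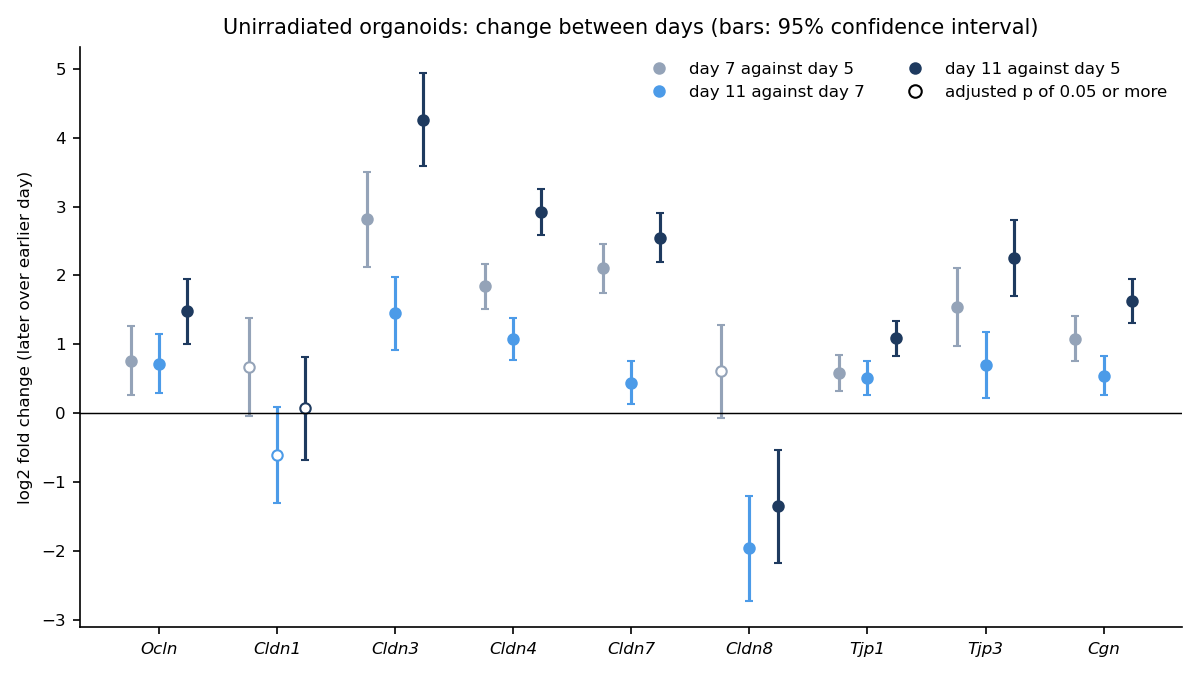
Log2 fold change of each gene between days in unirradiated organoids (vertical axis), with the 95% confidence interval as bars, and open points where the adjusted p was 0.05 or more. There were 7 genes that lay above 0 in each comparison, with *Cldn3* at 4.26 from day 5 to day 11, while *Cldn1* lay at 0.07 and *Cldn8* at -1.35.

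*Cldn3* and *Cldn4*, 2 claudins of simple and glandular epithelia that also bind *Clostridium perfringens* enterotoxin, had the widest changes of the 9 genes. *Cldn3* stood at 19.0, 12.2 and 8.84 CPM at day 5, 119, 58.0 and 75.7 CPM at day 7 and 287, 178 and 221 CPM at day 11, with no overlap between days. In the fit with TMM factors its level was 19.2-fold higher at day 11 than at day 5 (log2 4.26, SE 0.31, adjusted p = 6.79e-07), of which 2.81 on the log2 scale came by day 7.

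*Cldn4* was 7.55-fold higher at day 11 (log2 2.92, SE 0.15, adjusted p = 7.80e-08), and its days did not overlap either. Its libraries held 63.8, 87.4 and 73.8 CPM at day 5, 236, 220 and 268 CPM at day 7 and 627, 472 and 435 CPM at day 11. *Cldn7*, a claudin that is also found along the basolateral membrane, rose mostly before day 7. It went from 33.8, 35.9 and 32.4 CPM to 161, 115 and 121 CPM and then to 218, 147 and 173 CPM, where days 7 and 11 overlapped. Its change was 5.84-fold over both steps (adjusted p = 2.81e-07), with log2 2.10 in the first step and 0.44 in the second (adjusted p = 0.0447). The second was called in 7 of 10 alternatives, with an adjusted p of up to 0.287, and lost its call without the day 7 library of mTG12 (0.143) or mTG14 (0.127) or the day 11 library of mTG11 (0.176) or mTG14 (0.0975).

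*Cldn1*, the claudin of the epidermal barrier, and *Cldn8*, a claudin known for sealing the collecting duct of the kidney, did not follow *Ocln*. *Cldn1* stood at 11.4, 16.7 and 12.0 CPM at day 5, 11.2, 25.7 and 20.1 CPM at day 7 and 9.29, 18.8 and 9.90 CPM at day 11, so that all days overlapped. Its day 11 against day 5 difference was 0.07 on the log2 scale (95% confidence interval -0.68 to 0.82, adjusted p = 0.895), an interval that lies below that of *Ocln* and still allows a change of up to 0.82 upward. With the culture as a block its level was higher at day 7 than at day 5 (log2 0.65, adjusted p = 0.0248) and lower at day 11 than at day 7 (-0.59, adjusted p = 0.0324). The fit without the block gave 0.67 (0.174) and -0.60 (0.212), and leaving out the day 7 library of mTG11 from it gave adjusted p = 0.0342 and 0.0432.

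*Cldn8* fell after day 7. It held 5.17, 12.5 and 12.5 CPM at day 5, 14.1, 18.6 and 9.26 CPM at day 7 and 3.10, 3.22 and 4.40 CPM at day 11, below every library of both earlier days. The change from day 7 to day 11 was -1.96 on the log2 scale (SE 0.35, adjusted p = 0.00182), and that from day 5 to day 11 was -1.35 (SE 0.38, 95% confidence interval -2.17 to -0.54, adjusted p = 0.0122), which lost its call without the day 5 library of mTG14 (0.0561). At these levels a library held as few as 7 counts of *Cldn8*, so counting error is a larger part of its spread than for the other claudins.

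The 3 scaffold genes rose by less than *Cldn3* and *Cldn4*. *Tjp1*, which encodes the scaffold ZO-1, held 37.6, 41.8 and 38.2 CPM at day 5, 62.0, 48.5 and 48.1 CPM at day 7 and 68.8, 75.1 and 81.9 CPM at day 11. Its 2.13-fold change over both steps was the smallest of the 7 rising genes (log2 1.09, SE 0.12, adjusted p = 1.49e-05), with libraries of different days that did not overlap.

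*Tjp3*, which encodes ZO-3, a scaffold restricted to epithelia, was 4.75-fold higher at day 11 than at day 5 (adjusted p = 2.08e-05), from 23.4, 19.0 and 14.3 CPM through 70.2, 35.5 and 43.2 CPM to 94.9, 64.9 and 81.7 CPM. Its days 7 and 11 overlapped, and the second step (log2 0.70, adjusted p = 0.0396) lost its call without the day 7 library of mTG12 (0.128) or mTG14 (0.121) or the day 11 library of mTG11 (0.138) or mTG14 (0.102). *Cgn*, encoding cingulin, which links the junction to actomyosin, went from 17.8, 15.4 and 14.4 CPM through 33.0, 26.9 and 30.6 CPM to 45.7, 39.4 and 47.0 CPM, a 3.09-fold rise (adjusted p = 3.20e-06) in which no days overlapped.

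Other tight junction genes also rose more often than they fell. Of 55 further genes in 4 lists (other claudins, tricellular and MARVEL proteins, the JAM family, scaffolds and regulators), 38 passed the filter on low counts, and 21 were higher and 5 lower at day 11 than at day 5, with a median log2 change of 0.58 beside 0.06 over all genes, of which 21.3% were higher and 20.1% lower. By step, 15 were higher and 1 lower at day 7 (12% and 9.62% of all genes), and 12 were higher and 2 lower from day 7 to day 11 (9.57% and 11.7%). The filter removed 14 of the 21 other claudins, of which 4 were higher and 1 lower among the 7 tested. Of the other lists, 3 of 4 tricellular and MARVEL genes were higher, 2 of 3 JAM family genes were higher and 1 lower, and 12 of 24 scaffolds and regulators were higher and 3 lower.

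Among these, *Cldn23* rose from 4.42 ± 1.17 to 50.9 ± 18.1 CPM (SD, n = 3, log2 3.69, adjusted p = 1.46e-05), and *Ildr1*, a protein of the contacts where 3 cells meet, from 6.23 to 38.7 CPM (log2 2.77). The polarity gene *Pard6b* went from 4.23 to 26.9 CPM (2.84) and the angiomotin family gene *Amotl2* from 24.7 to 104 CPM (2.23). Also 2 genes with a mean of at least 10 CPM fell, the polarity gene *Pard6g* from 177 to 90.4 CPM (-0.82) and *Ybx3*, a ZO-1 binding factor, from 556 to 369 CPM (-0.45). In the adherens junction list, the belt below the tight junction, 6 of 12 genes rose and 2 fell, beside 21.3% and 20.1% of all genes tested. The share that fell was thus no larger than that of all genes. Among those that rose were *Nectin2* (33.0 to 74.6 CPM, log2 1.33), *Afdn* (113 to 192 CPM, 0.90), *Nectin4* (0.86) and *Ctnna1* (0.53). Both genes of that list that fell, *Jup* (523 to 231 CPM, -1.03) and *Nectin1* (300 to 170 CPM, -0.68), encode proteins of cell contacts too, *Jup* also of desmosomes.

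**Figure D3:**
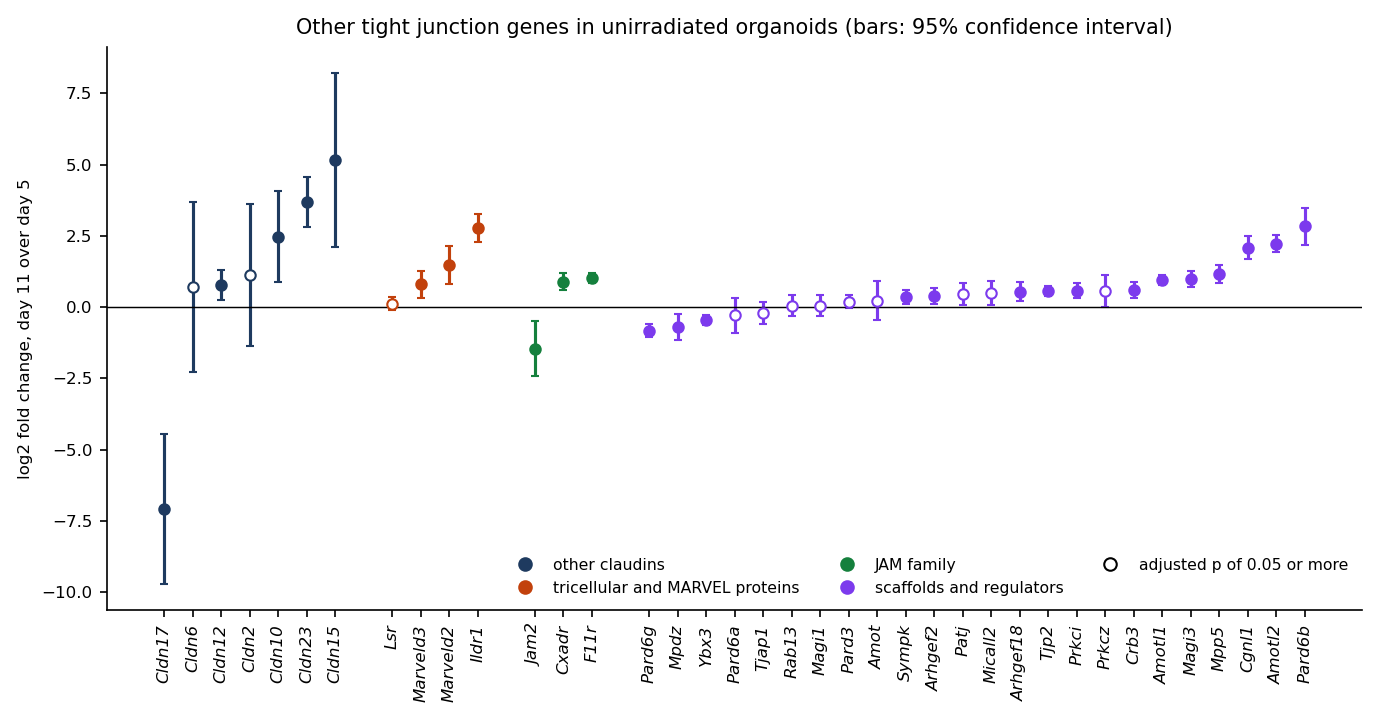
Log2 fold change from day 5 to day 11 in unirradiated organoids (vertical axis) of the 38 other tight junction genes tested, grouped by list, with 95% confidence intervals as bars and open points where the adjusted p was 0.05 or more. Most points lie above 0, and *Cldn15* and *Cldn17* at the ends of the claudin list averaged 0.584 and 1.30 CPM over the 27 libraries and were at 0 in 9 and 11 of them, so that their fitted values depend on the prior count.

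Markers of epithelial states moved over the same days. Of all genes tested, 21.3% were called higher and 20.1% lower at day 11 than at day 5, and 12% were called higher at day 7. The 6 simple epithelial markers (*Epcam*, *Krt7*, *Krt8*, *Krt18*, *Krt19*, *Cdh1*) were all called higher at day 7 and 5 of 6 at day 11, and their summed level went from 943 to 1181 CPM at day 5 to 2919 to 4039 CPM at day 11. Of 14 stratified epithelial markers 3 were higher at day 11, near the share of all genes, and 9 were lower. Their sums were 16312 to 20570 CPM at day 5 and 7237 to 8930 CPM at day 11. The 6 multiciliated cell markers were all higher (5.702 to 10.8 CPM and 34.6 to 72.4 CPM), 5 of 10 fibroblast markers were lower (36.9 to 124 CPM and 10.5 to 80.6 CPM), and 2 of 5 thyroid follicular markers tested were higher (52.7 to 68.2 CPM and 95.2 to 132 CPM). In the thyroid list *Duox2* had the widest range, from 0 to 93.8 CPM over all libraries, so the sum need not reflect the other thyroid genes. Of 8 immune markers 3 were tested and 2 were higher, *Cd68* (log2 2.99) and *Itgam* (6.203), with list sums of 5.53 to 16.7 CPM at day 5 and 48.3 to 90.4 CPM at day 11. Of the 6 C cell markers 3 were tested, with 1 higher and 1 lower, and the only endothelial marker tested, *Egfl7*, was lower (-1.24). The part of these markers in the rise of the tight junction genes was not tested.

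At day 7, 2 days after irradiation, *Ocln* showed no called response to any dose. It held 17.4, 10.7 and 16.8 CPM after 2 Gy, 14.9, 16.0 and 17.2 CPM after 4 Gy and 19.6, 13.1 and 16.5 CPM after 7 Gy, each overlapping the unirradiated 13.3, 12.5 and 16.0 CPM. The log2 differences from 0 Gy were 0.04 (95% confidence interval -0.43 to 0.50), 0.16 (-0.28 to 0.60) and 0.23 (-0.21 to 0.67, adjusted p = 0.580), and the slope over the 4 doses was 0.03 per Gy (-0.02 to 0.09, adjusted p = 0.487). A response as large as the rise of *Ocln* between days 5 and 7 (0.76) lay outside these 3 intervals.

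Of the 9 genes 2, *Cldn1* and *Cldn4*, were called at 7 Gy, both higher, where 6.95% of 19346 genes tested were called in either direction. At 2 Gy none was called (edgeR, 1 gene at an unadjusted p under 0.05, 0 by DESeq2) beside 0.124% of all genes, or 24 genes, which became 139 with the culture as a block. At 4 Gy none was called (4 at an unadjusted p under 0.05, 0 by DESeq2) beside 1.63%, or 315 genes and 1010 with the block. The slope over dose was called for 3 of the 9 genes, *Cldn1* and *Cldn4* upward and *Cldn8* downward, beside 8.62% of all genes. With the culture as a block 0, 1 and 3 of the 9 were called at 2, 4 and 7 Gy, and 3 for the slope.

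*Cldn1* was higher after 7 Gy at day 7. Its libraries held 11.2, 25.7 and 20.1 CPM without irradiation, 21.7, 38.1 and 32.9 CPM after 2 Gy, 29.2, 42.3 and 31.0 CPM after 4 Gy and 37.1, 44.2 and 37.0 CPM after 7 Gy, and the 4 Gy and 7 Gy libraries all lay above the unirradiated ones. The log2 differences were 0.70 (adjusted p = 0.476), 0.80 (0.142) and 1.04 (SE 0.25, 0.0219), with a slope of 0.13 per Gy (0.0293). With the culture as a block the 4 Gy difference was called as well (adjusted p = 0.00726). The 7 Gy call was lost without the unirradiated library of mTG11 (log2 0.76, adjusted p = 0.0641) or mTG14 (1.10, 0.0572). It was also lost without the 7 Gy library of mTG11 (1.08, 0.0537) or mTG12 (0.97, 0.0766). Of 10 alternatives 9 called it, among them the culture as a block (0.000319) and DESeq2 (0.00238). With all 27 libraries in 1 fit it was not called (0.0891). The slope lost its call without the unirradiated library of mTG14 (0.0712) or the 7 Gy library of mTG12 (0.0849).

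*Cldn4* went the same way by a smaller factor. From 236, 220 and 268 CPM without irradiation it stood at 306, 263 and 317 CPM after 2 Gy, 340, 393 and 276 CPM after 4 Gy and 452, 376 and 313 CPM after 7 Gy, the last 2 groups without overlap with 0 Gy. The log2 differences were 0.26 (adjusted p = 0.666), 0.42 (0.167) and 0.65 (SE 0.14, 0.0129), and the slope was 0.09 per Gy (0.00511). The 7 Gy call was lost without the unirradiated library of mTG11 (log2 0.61, adjusted p = 0.0503) or the 7 Gy library of mTG11 (0.50, 0.0633). Of 10 alternatives 9 called it, among them the culture as a block (0.00387) and DESeq2 (0.000343).

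*Cldn8* moved down with dose at day 7. It held 14.1, 18.6 and 9.26 CPM at 0 Gy, 8.70, 10.0 and 9.86 CPM after 2 Gy, 4.37, 9.58 and 9.74 CPM after 4 Gy and 2.26, 8.99 and 6.12 CPM after 7 Gy, where every library was below the unirradiated ones. The slope was -0.18 per Gy (adjusted p = 0.0293) and lost its call without the unirradiated library of mTG11 (0.0649) or mTG12 (0.116) or the 7 Gy library of mTG11 (0.0843), and without all mTG12 libraries (0.0584). The single dose differences were -0.56 (0.720), -0.83 (0.286) and -1.28 (SE 0.37, 0.0546), and the last was called with the culture as a block (0.00814), with DESeq2 (0.0285) and without the 7 Gy library of mTG12 (0.0322). The 7 Gy differences of *Cldn3*, *Cldn7*, *Tjp1*, *Tjp3* and *Cgn* lay between -0.30 and 0.22 on the log2 scale and were not called.

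**Figure D4:**
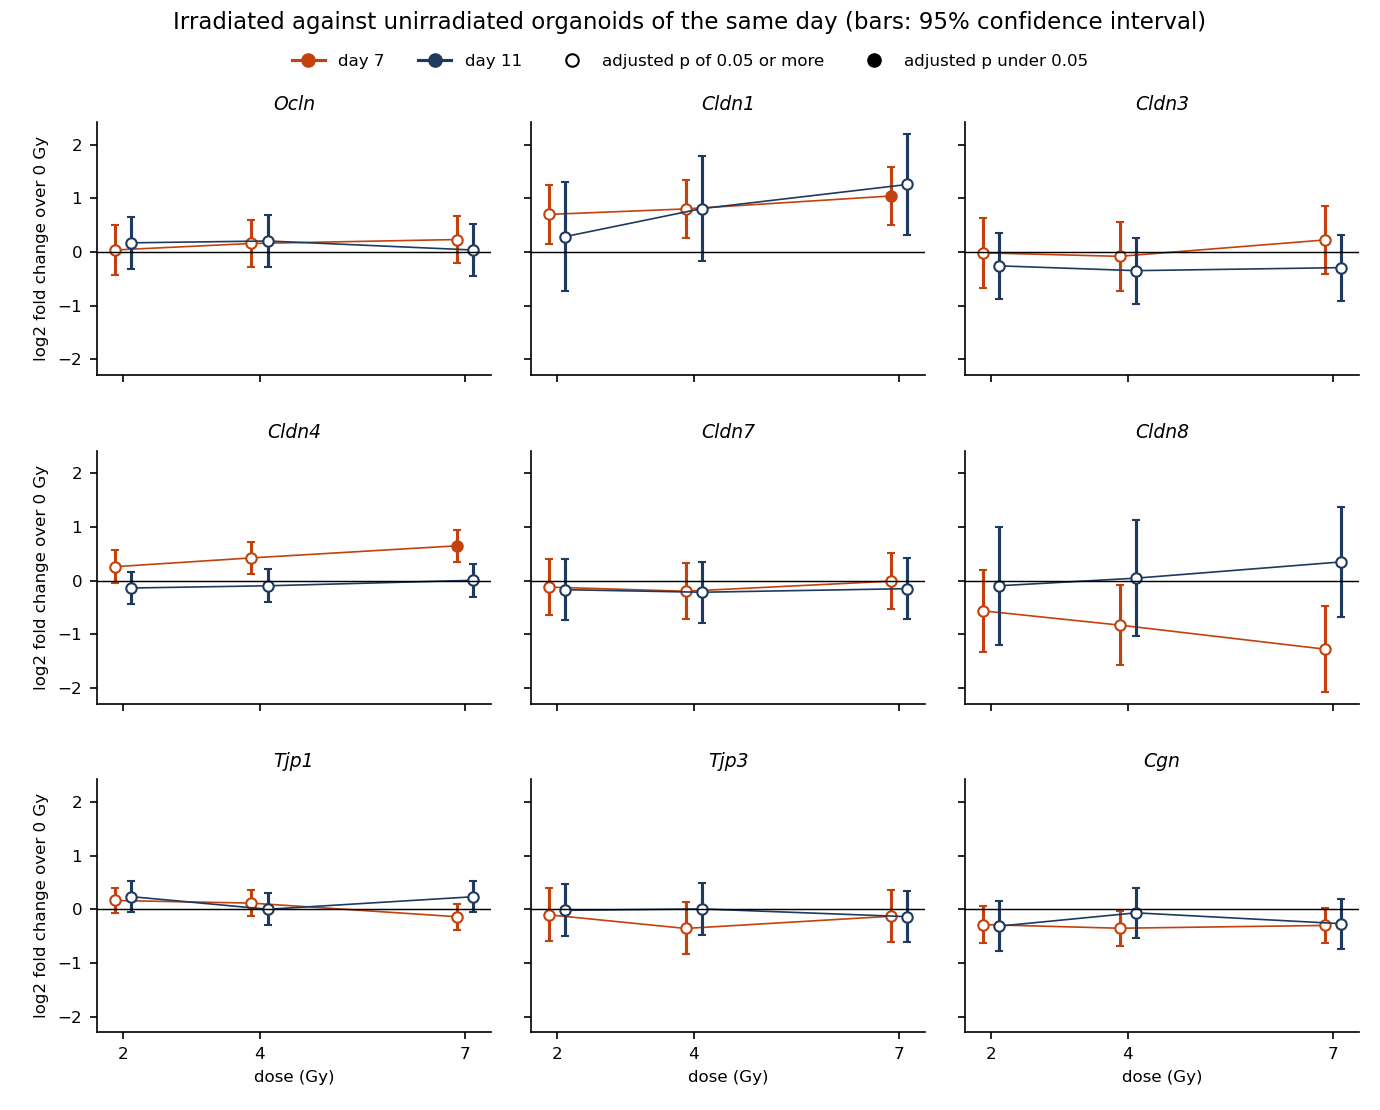
Log2 fold change of each gene over the unirradiated organoids of the same day (vertical axis) against dose in Gy (horizontal axis), for days 7 and 11, with 95% confidence intervals as bars and filled points where the adjusted p was under 0.05. The points of *Ocln* stay between 0.04 and 0.23, and the 2 filled points are *Cldn1* and *Cldn4* at 7 Gy and day 7.

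By day 11, 6 days after irradiation, the irradiated libraries of *Ocln* again overlapped the unirradiated ones at each dose. It held 33.3, 17.8 and 28.0 CPM after 2 Gy, 32.2, 19.6 and 29.3 CPM after 4 Gy and 24.6, 22.9 and 25.1 CPM after 7 Gy, beside 28.8, 19.3 and 20.6 CPM at 0 Gy. The log2 differences were 0.17, 0.20 and 0.04 (95% confidence interval at 7 Gy -0.44 to 0.51, adjusted p = 0.973), with a slope of 0.00 per Gy. Ordered by their means, the 9 groups of *Ocln* lay in the order of the days, and in the order of dose at day 7 but not at day 11: 9.06 CPM at day 5, then 13.9, 15.0, 16.0 and 16.4 CPM at day 7 (0, 2, 4 and 7 Gy), then 22.9, 24.2 and 26.4 CPM at day 11 (0, 7 and 2 Gy), with 4 Gy just above them. Of the 8 pairs of neighbours in this order 7 overlapped, and the only pair apart was day 5 and day 7 without irradiation.

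None of the 9 genes was called at any dose of day 11 in the fit without the culture as a block. With the block 0, 1 and 2 of them were called at 2, 4 and 7 Gy, and 1 for the slope. The counts at an unadjusted p under 0.05 were 0, 0 and 1 at 2, 4 and 7 Gy and 1 for the slope, and DESeq2 called 0, 0, 0 and 1. Few genes were called at all, 0% of 19901 genes at 2 Gy (edgeR, 1157 genes at an unadjusted p under 0.05, 1 by DESeq2 and 72 with the culture as a block), 0.00502% at 4 Gy (1 gene, 37 by DESeq2 and 238 with the block), 1.52% at 7 Gy (302 genes, 1296 with the block) and 2.51% for the slope (499 genes, 1353 with the block).

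*Cldn1* had the widest difference from 0 Gy at day 11, with a wide spread. Beside 9.29, 18.8 and 9.90 CPM at 0 Gy it held 10.5, 19.2 and 17.6 CPM after 2 Gy, 12.4, 25.4 and 29.3 CPM after 4 Gy and 14.7, 54.2 and 23.8 CPM after 7 Gy, where the library of mTG12 stood apart and the groups overlapped. The log2 differences were 0.28, 0.81 and 1.26 (95% confidence interval 0.31 to 2.20, adjusted p = 0.188), with a slope of 0.18 per Gy (0.0900). With the culture as a block both the 7 Gy difference (1.19, adjusted p = 0.00501) and the slope (0.17 per Gy, 0.00218) were called, and the slope also by DESeq2 (0.0270) and without the 7 Gy library of mTG11 (0.0325). Without the 7 Gy library of mTG12 the 7 Gy difference was 0.57 (adjusted p = 0.600) and the slope 0.0989 per Gy (0.462), and without all libraries of mTG12 they were 0.93 (0.348) and 0.13 per Gy (0.299). Within each culture the 7 Gy library was the highest of the 4 doses for mTG11 and mTG12, and the 4 Gy library for mTG14.

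*Cldn3* went slightly the other way, with 254, 127 and 208 CPM after 2 Gy, 225, 113 and 209 CPM after 4 Gy and 237, 138 and 199 CPM after 7 Gy, beside 287, 178 and 221 CPM. Each irradiated library was below the unirradiated library of its own culture. The log2 differences of -0.35 at 4 Gy and -0.29 at 7 Gy were not called, and with the culture as a block they were (-0.38, adjusted p = 0.0411, and -0.30, adjusted p = 0.0392). *Cldn4* differed by 0.01 at 7 Gy (567, 513 and 496 CPM beside 627, 472 and 435 CPM), and *Cldn8* by 0.35 with irradiated libraries between 1.89 and 8.82 CPM.

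The rise from day 7 to day 11 was then tested within each dose, in 1 fit of the 24 libraries of both days. At 0 Gy 5 of the 9 genes were called higher (*Ocln*, *Cldn3*, *Cldn4*, *Tjp1* and *Tjp3*), beside 8.03% of 21928 genes, and 1 was called lower (*Cldn8*), beside 9.63%. *Cldn7* (log2 0.44, adjusted p = 0.313) and *Cgn* (0.55, 0.0630), called for the same days in the fit of the 9 unirradiated libraries, were not called in this one. With the culture as a block both were called (0.0274 and 0.0121). At 2 Gy the same 5 were higher (7.52% of all genes) and *Cldn8* was lower (9.68%). At 4 Gy *Cgn* joined the 5 (7.71%), and none was lower (9.43%, edgeR, with *Cldn8* at -1.06 and an adjusted p of 0.124). At 7 Gy *Cldn4* and *Tjp1* were higher (6.15%) and none was lower (6.17%). With the culture as a block the 7 Gy count was 6 genes, and DESeq2 called 4.

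*Ocln* rose by 0.72 on the log2 scale at 0 Gy (adjusted p = 0.0354), 0.86 at 2 Gy (0.0133) and 0.79 at 4 Gy (0.0174), and differed by 0.56 at 7 Gy (0.115, and 0.0110 with the culture as a block). With the culture as a block the 2 Gy rise was called as well (0.000567). The calls at 0, 2 and 4 Gy were lost in some fits that left out 1 library, with log2 rises of 0.55 to 0.79. That at 0 Gy was lost without the day 7 library of mTG11 (0.0949) or mTG12 (0.106) or the day 11 library of mTG11 (0.164). That at 2 Gy was lost without the day 7 library of mTG12 (0.121) or the day 11 library of mTG11 (0.0866), and that at 4 Gy without the day 7 library of mTG11 (0.0547) or mTG12 (0.0525) or the day 11 library of mTG11 (0.0816).

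*Cldn3* rose by 1.45, 1.21 (adjusted p = 0.0118) and 1.20 (0.0119) at 0, 2 and 4 Gy and differed by 0.96 at 7 Gy (0.0520, and 5.65e-07 with the block). Its 2 Gy call was lost without the day 7 library of mTG12 (0.0929) or the day 11 library of mTG11 (0.0655), and its 4 Gy call without the same libraries of that dose (0.0576 and 0.0556). Its 7 Gy difference was called without the day 7 library of mTG11 (0.0426) or the day 11 library of mTG12 (0.0247). *Cldn4* rose by 1.08, 0.69 (0.00238), 0.58 (0.00956) and 0.47 (0.0446), a rise that was smaller at each higher dose. Its 7 Gy call was lost without the day 7 library of mTG12 (0.111) or mTG14 (0.165) or the day 11 library of mTG11 (0.144).

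*Tjp1* rose at every dose. Its 7 Gy libraries held 42.1, 53.4 and 49.2 CPM at day 7 and 86.7, 87.6 and 98.9 CPM at day 11, and the log2 changes at 0, 2, 4 and 7 Gy were 0.51, 0.59, 0.41 (adjusted p = 0.0215) and 0.91 (2.99e-05). The 4 Gy call was lost without the day 7 library of mTG12 (0.0640) or the day 11 library of mTG11 (0.0886) or mTG12 (0.0801). *Cldn8* changed by -1.96, -1.49 (0.0320), -1.06 (0.124, and 0.0425 with the block) and -0.29 (0.751), and its 2 Gy call was lost without any one of the 6 libraries (0.0533 to 0.114).

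Whether dose altered the change between days was tested directly, as the difference between days in the response to each dose. None of the 9 genes passed at 2, 4 or 7 Gy (edgeR, with 0, 1 and 3 genes at an unadjusted p under 0.05, and 0 by DESeq2), where 0%, 0.109% and 3.01% of all genes were called, that is 0, 24 and 660 genes by edgeR and 1, 78 and 687 by DESeq2. For *Ocln* the differences were 0.14, 0.06 and -0.16 on the log2 scale, the last with a 95% confidence interval of -0.84 to 0.51 (adjusted p = 0.902). A rise at 7 Gy smaller by 0.72, the size of the rise at 0 Gy, lay inside that interval, and one larger by 0.72 lay outside it.

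For *Cldn4* the difference at 7 Gy was -0.61 (adjusted p = 0.145), as it was higher than at 0 Gy at day 7 and level with it at day 11, and with the culture as a block it was called (-0.59, adjusted p = 0.0427). For *Cldn8* it was 1.67 (95% confidence interval 0.34 to 3.00, adjusted p = 0.205), for *Tjp1* 0.40 (0.04 to 0.77, adjusted p = 0.285) and for *Cldn1* 0.25. The *Cldn8* value was 0.76 without the 7 Gy library of mTG12 at day 11 and 0.84 without all libraries of mTG12. Calls at 1 day and not at the other for these genes are therefore not shown to differ between the days without the block.

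The share of the other tight junction genes called with dose was near that of all genes. At 7 Gy and day 7, where 6.95% of all genes were called, 2 of 39 tested were higher, *Amotl2* (35.1 to 56.0 CPM, log2 0.66, adjusted p = 0.0138) and the cingulin relative *Cgnl1* (32.2 to 47.6 CPM, 0.56, 0.0383), and 1 was lower, *Ybx3* (439 to 354 CPM, -0.32, 0.0336). At 7 Gy and day 11, where 1.52% of all genes were called, *Arhgef2*, an exchange factor held at the junction by cingulin, was lower (66.2 to 46.8 CPM, -0.53, 0.0366) and none was higher. No gene of the adherens junction list was called at 7 Gy at either day by edgeR. Among the marker lists at 7 Gy, 1 stratified marker was higher and 4 were lower at day 7, none of the simple epithelial markers was called, and 2 of 6 multiciliated markers were lower at day 11 (34.6 to 72.4 CPM at 0 Gy and 10.9 to 26.9 CPM at 7 Gy). The C cell list had 1 gene higher at day 7, *Calcb*, with list sums of 20.1 to 39.8 CPM at 0 Gy and 77.4 to 91.2 CPM at 7 Gy, while *Calca* never passed 1.20 CPM, and *Calcb* was also higher at day 11 (log2 1.87, adjusted p = 0.0317), with list sums of 3.30 to 5.95 CPM at 0 Gy and 10.7 to 16.6 CPM at 7 Gy. The part of these markers in the responses of *Cldn1*, *Cldn4* and *Cldn8* was not tested.

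The 3 cultures kept their order for several of the 9 genes whatever the day and dose. Culture mTG12 was the lowest of its group for *Ocln*, *Cldn3* and *Tjp3* in 8 of 9 groups each and the highest for *Cldn1* in 8. Culture mTG11 was the lowest for *Cldn1* in all 9 groups and the highest for *Tjp3* in 9, for *Cldn3* and *Cldn7* in 8 each and for *Ocln* in 7. The mean log2 deviation from the group mean was 0.18 in mTG11 and -0.26 in mTG12 for *Ocln*, 0.40 and -0.44 for *Cldn3*, 0.28 and -0.30 for *Tjp3*, and the reverse for *Cldn1* (-0.44 and 0.41) and *Cldn8* (-0.42 and 0.33). *Tjp1* had no such order, with mean deviations of -0.03, 0.01 and 0.02. Of 9537 genes with a mean of at least 10 CPM, 2.64% were lowest in mTG12 in at least 8 groups and 2.41% were highest, beside 3 and 1 of the 9 tight junction genes. In the same way 2.41% and 3.31% were lowest and highest in mTG11, beside 1 and 3 of the 9. Without mTG12 the rise of *Ocln* from day 5 to day 7 was 0.73 (adjusted p = 0.101) and that from day 7 to day 11 was 0.77 (0.0514), both no longer called. Also lost without mTG12 were the fall of *Cldn8* from day 5 to day 11 (-1.13, adjusted p = 0.0834), the rises of *Tjp1* (0.47, 0.0628) and *Tjp3* (0.65, 0.0830) from day 7 to day 11 the 7 Gy response of *Cldn4* at day 7 (0.61, 0.0711) and the dose slope of *Cldn8* at day 7 (-0.20 per Gy, 0.0584). Between days 7 and 11 within doses, the calls of *Cldn8* at 2 Gy (-1.52, 0.0707), *Tjp1* at 4 Gy (0.33, 0.243) and *Cldn4* at 7 Gy (0.48, 0.0931) were lost without mTG12, as was that of *Tjp1* at 0 Gy in the fit of both days (0.50, 0.0662).

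**Figure D5:**
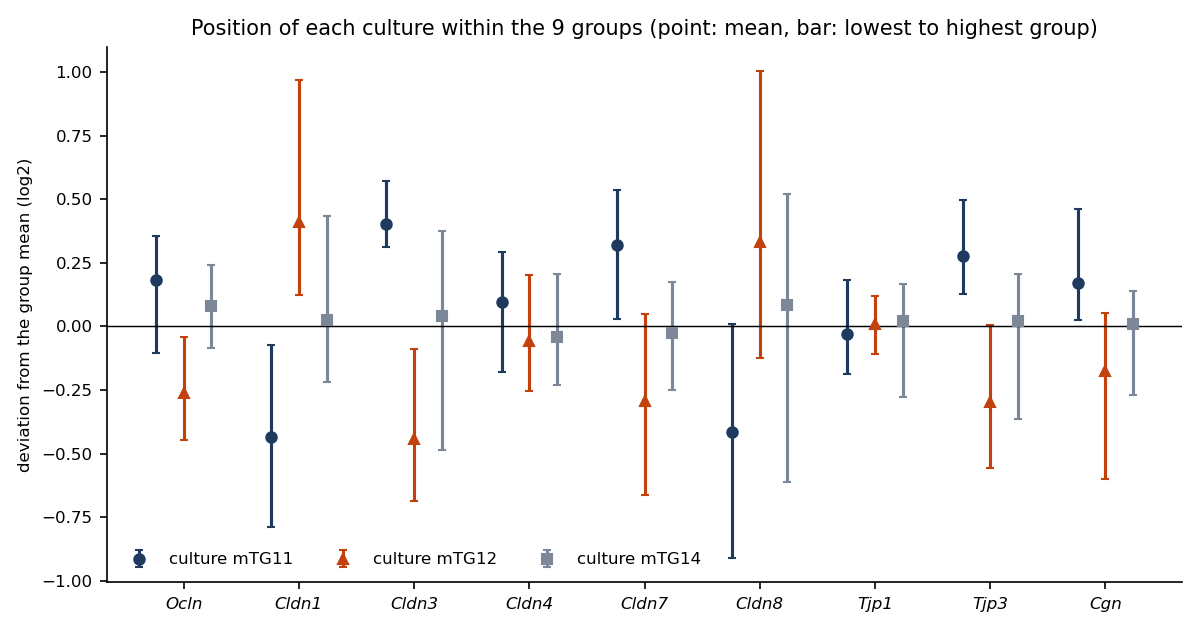
Deviation of each culture from the mean of its group on the log2 scale (vertical axis) for each gene, as the mean over 9 groups (point) and the range from the lowest to the highest group (bar). The point of mTG12 lies at -0.44 for *Cldn3* and at 0.41 for *Cldn1*, and the 3 cultures lie close to 0 for *Tjp1*.

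The genes whose pattern over all 27 libraries was most like that of *Ocln* were the keratin gene *Krt23* (Pearson r = 0.96 of log2 CPM), *Lman2l* (0.96), the nucleoside carrier *Slc28a3* (0.95), *Oasl1* (0.94) and *Rhpn2* (0.94), out of 9536 genes averaging 10 CPM or more. These values are a description, since the libraries share days, doses and cultures. Of the tight junction genes, *Tjp3* (r = 0.93, place 37), *Cldn3* (0.92, place 43), *Cgn* (0.88, place 221), *Cldn4* (0.87, place 283), *Cldn7* (0.85, place 371) and *Tjp1* (0.77, place 867) followed, and *Cldn1* (-0.08) and *Cldn8* (-0.70) did not. Within the groups, where day and dose are held, the r of *Ocln* was 0.80 with *Cldn3*, 0.77 with *Cldn7*, 0.73 with *Tjp3*, 0.66 with *Cgn* and 0.52 with *Cldn4*, and below 0 with *Tjp1* (-0.39), *Cldn1* (-0.51) and *Cldn8* (-0.48). *Tjp1* thus rose over the same days as *Ocln* and did not share its order of cultures.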

How the data were processed

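The authors made cDNA libraries by the Smart3SEQ protocol from 80 ng of RNA and sequenced single 75-base reads. Their processing notes name STAR, edgeR and GRCm39. The counter and its strand setting are not given in the sources used here. The deposited matrix holds expected counts per gene, of which 56.3% of the nonzero values were whole, and they were rounded to whole numbers (raw counts had been assumed in the plan). Libraries held 2528866 to 5723150 counts, and precision is limited by counting error for genes with few counts. No 2 libraries of a group agreed within sampling noise.

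Genes whose counts added up to 10 or more in a fit were tested in R 4.3.3 with the edgeR 4.0.16 quasi-likelihood test, TMM factors and Benjamini-Hochberg adjustment over all genes of the fit, called at an adjusted p under 0.05, in fits of 9 unirradiated, 12 same-day or 24 (days 7 and 11) libraries. Levels in CPM are counts per 1000000 of each library's total, without TMM factors. Fold changes come from the fits with these factors and can differ from ratios of CPM means. Culture deviations and correlations used TMM-scaled CPM on the log2 scale. The slope takes dose in Gy as a number. Libraries of 1 culture deviated together in all pairs of groups (lowest correlation of their deviations from the group means over 9537 genes 0.132 in unirradiated libraries, 0.236 at day 7, 0.287 at day 11 and 0.146 over both days), so the culture served as the replicate block in the paired fit, with the pairing taken from the column names. Alternatives were DESeq2 1.42.0, other scalings, filters and sets of libraries. The self-test used simulated counts. The 9 genes, the lists and the markers were chosen with earlier results of these data known. Named genes outside the 9 were those of each list with the largest called change, up to 4 per direction, with a mean of at least 10 CPM in the compared libraries. Sequences and motifs came from RefSeq tables (GRCm38.p6) and gene positions from GENCODE (GRCm39), in which 79.7% of the symbols were found. Python 3.11.15, pandas 2.3.3, numpy 2.4.6 and matplotlib 3.10.9 were used for summaries and plots.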

Additional observations from a re-analysis of the deposited data

How the results depend on the processing

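The rise of *Ocln*, *Cldn3*, *Cldn4*, *Cldn7*, *Tjp1*, *Tjp3* and *Cgn* from day 5 to day 11 was called under every alternative run, with *Ocln* between 1.34 and 1.49 on the log2 scale. The smaller steps and the dose responses depended more on the setting, and the cause was not tested. Unrounded counts and leaving out culture mTG12 were alternatives chosen after seeing the data.

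Counts of the 9 genes called moved as follows. Without the filter on low counts 1 gene was called at day 7 after 2 Gy and 3 after 4 Gy, 1 at day 11 after 4 Gy, 1 after 7 Gy and 1 for the slope, 7 from day 7 to day 11 at 7 Gy, and 2 for the difference between days at 7 Gy. With the culture as a replicate block the counts were 1 at day 7 after 4 Gy, 1 at day 11 after 4 Gy, 2 after 7 Gy and 1 for the slope, 6 from day 7 to day 11 at 7 Gy and 1 for the difference at 7 Gy. The block changed single calls only as given with the results, besides calls it added within doses. For day 7 to day 11 at 7 Gy (2 genes), RLE size factors gave 4, filterByExpr 5, unrounded counts 4, DESeq2 4, only the compared groups 5 and all 27 libraries in 1 fit 4. DESeq2 gave 1 for the slope at day 11. At day 7 after 7 Gy, 1 gene was called without mTG12 and 1 with all 27 libraries, and unirradiated day 11 against day 7 gave 5 without mTG12. Leaving out single libraries gave 5 to 8 genes for that comparison, 0 to 2 at day 7 after 7 Gy, 0 to 1 for the slope at day 11, and 2 to 5, 3 to 6 and 1 to 5 from day 7 to day 11 at 2, 4 and 7 Gy.

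The values that changed sign were all uncalled, and not all of them are listed here. *Tjp3* (-0.31 to 0.18) and *Cldn7* (-0.26 to 0.14) did so at day 7 after 7 Gy without single libraries. For *Cldn1*, day 11 against day 5 was -0.073 without TMM factors, -0.14 without mTG12 and -0.31 to 0.27 without single libraries, and its difference between days at 7 Gy was -0.31 and -0.45 to 0.64. *Ocln* without single libraries ranged from -0.0922 to 0.26 at day 7 after 2 Gy, -0.028 to 0.36 at day 11 after 2 Gy, -0.0877 to 0.23 at day 11 after 7 Gy (-0.034 without mTG12), -0.0153 to 0.0153 per Gy for the slope at day 11 (-0.009 without mTG12), and, for the difference between days, -0.0916 to 0.35 at 2 Gy, -0.10 to 0.25 at 4 Gy and -0.34 to 0.0093 at 7 Gy. At day 11 after 7 Gy *Cldn4* was -0.0009 with unrounded counts, -0.0319 without mTG12 and -0.0761 to 0.17 without single libraries, and *Cldn8* -0.64 and -0.55 to 0.66. *Cldn8* from day 7 to day 11 at 7 Gy ranged from -1.18 to 0.16. Depth limits *Cldn8* and *Ocln* most, with 7 and 20 counts in their lowest libraries.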
